A study of Mus musculus with 12 samples.

Results

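A set of 10 genes used as markers of macrophages and other myeloid cells was followed on 12 Affymetrix arrays of epithelium sorted from the mouse prostate. The genes were Lyz2, Ctss, Cd68, Tyrobp, Fcer1g, Csf1r, C1qa, C1qb, Aif1 and Laptm5, out of 18193 genes measured. For each gene, among the probe sets annotated to that symbol alone (18 in all), the one with the highest mean of log2(signal + 16) over the arrays was used. The mice were C57BL/6 males. Males either had the testes removed when 8 weeks old or kept them, and prostates were collected 4 weeks after that surgery. Dissociated cells negative for lineage antigens and positive for the epithelial protein EpCAM were sorted into luminal cells (low in the integrin CD49f) and basal cells (high in CD49f). The antigens of the lineage gate and the number of mice behind each array were not given in the sources used here. Crossing cell type with surgery gave 4 groups of 3 arrays, numbered by biological replicate. By the labels 3 distinct sets of mice were used. The design text speaks of castrated and paired intact animals, without stating which arrays form a pair. The main fit took no account of pairing, so its p-values measure the spread between these arrays.

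Macrophages take up debris and pathogens and break them down in lysosomes, and they reside in most organs. The genes followed here sit at several steps of that work: lysozyme and lysosomal proteins, the signalling chains of activating receptors, the receptor for the growth factor that keeps macrophages alive, and subunits of the complement starter C1q. Macrophages and dendritic cells also carry MHC class II molecules, which present digested peptides to T cells, while epithelial cells can be induced to make class II without being leukocytes.

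The sort was checked first. Krt5, a basal keratin, had a mean signal of 233 ± 237 (SD, n = 3) for luminal and 21594 ± 5588 for basal arrays of intact mice, and of 36.0 ± 28.6 against 26364 ± 4732 after castration. The luminal keratins parted the sorts far less. Krt8 had means of 23704 on luminal and 13340 on basal arrays of intact mice, and 25755 and 16772 after castration. Krt18 had 43022 and 29266 in intact mice. After castration it had 33644 on luminal and 38750 on basal arrays, the other way round. Epcam, whose protein was a gate of the sort, had means of 23623 on intact and 22781 on castrated luminal arrays. On basal arrays it was higher after castration, at 13634 ± 497 in intact and 22745 ± 2968 in castrated mice. The part of that difference in the results below was not tested. Signals were deposited after scaling, with a mean of 500.0 on each array once 2% was trimmed from each end, and array medians were 57.7 to 99.95. The 40th percentile of an array, used below as the line for a dim signal because detection calls were not analysed here, lay between 33.3 and 61.1. Within a group, arrays correlated with Pearson's r from 0.863 to 0.967 across genes, which are not independent replicates. Replicate 3 had the lowest array weight in each group (0.363 in intact luminal, 0.434 in castrated basal). Fibroblast markers also moved with castration. Of 10 tested, 0 rose and 6 fell in luminal arrays, where 2.9% of all genes rose and 2.96% fell. In basal arrays 0 rose and 4 fell, where 1.12% of all genes rose and 1.5% fell. Their summed signal was 7864 to 14262 on intact luminal and 766 to 983 on castrated luminal arrays. On basal arrays it was 40800.5 to 51396 in intact and 24059 to 29644 in castrated mice. The part of these markers in the results below was not tested. With 3 arrays a group, precision is limited by their number.

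Taken as a sum, the myeloid genes were brightest in basal cells of castrated mice. Added up over the 10 genes, signal was 2826 to 4302 on castrated basal arrays and 945 to 2104 on intact basal ones, and 517 to 1097 and 569 to 1304 on the luminal arrays of castrated and intact mice. The castrated basal arrays lay above every other array in this sum. Most of the sum on each of them came from Lyz2, Tyrobp and Ctss, with castrated basal means of 566, 482 and 1095. The sum therefore does not speak for all 10 genes. For 9 of the 10 genes the brightest array was a castrated basal one, and for the other, Cd68, an intact basal one. The share of all genes with a castrated basal array as the brightest was not worked out, so this count is a description. For 7 of the 10 genes castrated and intact basal arrays overlapped. C1qa was bright on 1 castrated basal array alone (267 against 10.2 and 7.11). In a pool of sorted cells a change in the number of cells of a type and a change in RNA per cell cannot be told apart. For 3 of the 10 genes, Lyz2, Tyrobp and Ctss, all 3 castrated basal arrays exceeded all 9 others, an arrangement found in 2.76% of all genes tested.

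**Figure D1:**
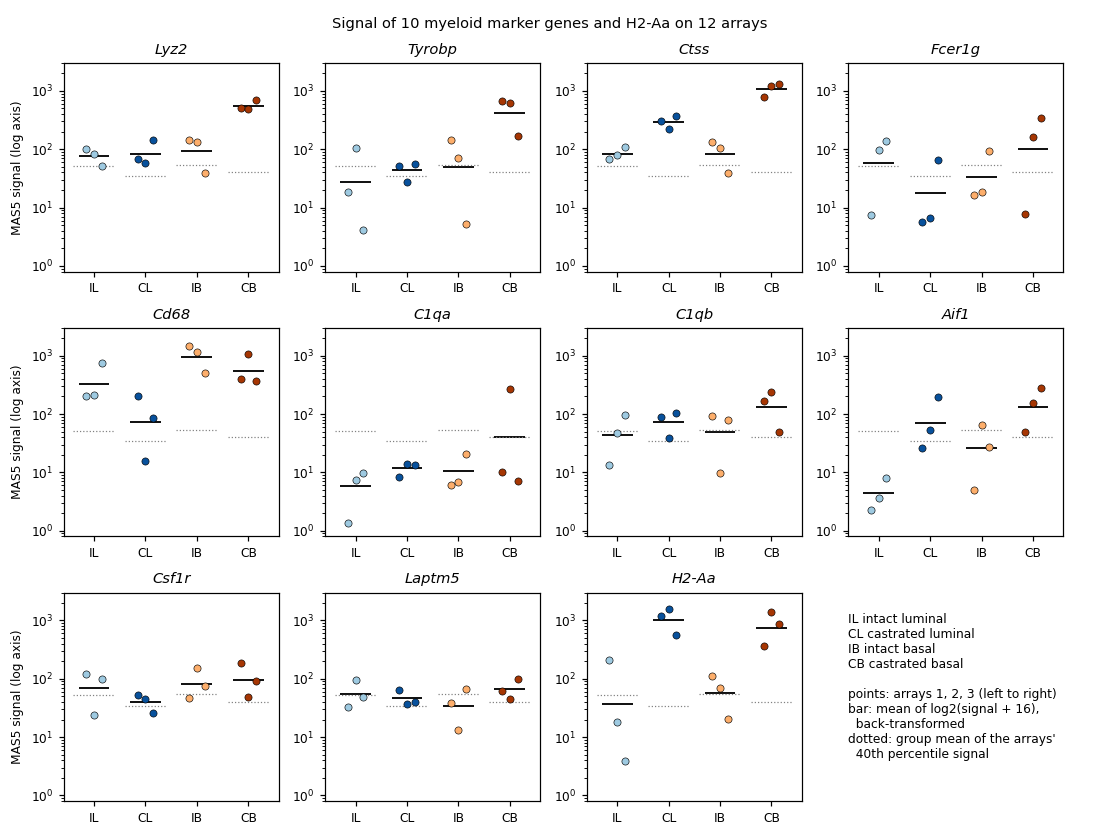
MAS5 signal (log axis) of the 10 myeloid marker genes and of the class II gene H2-Aa, 1 panel per gene and 1 point per array in the 4 groups, with the back-transformed group mean of log2(signal + 16) as a bar and the mean 40th percentile signal of the group's arrays as a dotted line. Lyz2, Tyrobp and Ctss are highest in all 3 castrated basal arrays, while H2-Aa is high in castrated luminal and castrated basal arrays alike.

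Lyz2 encodes lysozyme, an enzyme that cuts bacterial cell walls and a standard marker of macrophages and granulocytes. Its signals were 142, 132 and 39.3 on intact basal arrays and 502, 492 and 703 on castrated basal arrays. The groups did not overlap, and the lowest castrated array, at 492, lay far above the highest intact one, at 142. The difference was 2.40 ± 0.59 (log2 of signal plus 16, estimate ± standard error, n = 3 arrays per group, limma adjusted p = 0.0398 over the 14645 genes tested). The call held under 10 of the 25 alternatives tried, among them 3 of the 12 that each left out 1 array. With the replicate number as a block the adjusted p was 0.0589, and without all arrays of replicate 3 the difference was 1.75 with an adjusted p of 0.132.

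Ctss encodes cathepsin S, a lysosomal protease of antigen-presenting cells that trims the class II chaperone Cd74 before peptides are loaded. Its signals were 132, 104 and 39.0 on intact basal arrays and 786, 1196 and 1303 on castrated basal arrays, again without overlap. It rose by 3.45 ± 0.53 (adjusted p = 0.00237), and passed under all 25 alternatives, with differences from 2.89 to 3.80. On luminal arrays Ctss was also higher after castration on every array, at 67.1, 78.8 and 110.5 in intact and 302, 223 and 364 in castrated mice, but that difference of 1.62 ± 0.53 did not pass (adjusted p = 0.0866). Median centring, averaging of probe sets and array weights each made it pass.

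The 300 bases around the start of Ctss and Lyz2, the 2 myeloid genes that passed in basal cells, are shown because both rose there. They are RefSeq sequence of build GRCm38.p6 from 250 bases before to 50 after the annotated start, in the direction of the gene. Capitals mark GAGGAA, a core of sites bound by the myeloid factor PU.1, searched on both strands.
Ctss, chr3:95526536-95526835, + strand: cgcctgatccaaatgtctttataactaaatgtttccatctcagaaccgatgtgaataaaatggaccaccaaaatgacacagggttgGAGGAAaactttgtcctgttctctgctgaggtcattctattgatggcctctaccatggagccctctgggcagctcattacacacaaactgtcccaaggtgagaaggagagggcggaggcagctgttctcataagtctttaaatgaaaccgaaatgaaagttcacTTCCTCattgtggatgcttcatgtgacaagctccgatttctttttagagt
Lyz2, chr10:117282223-117282522, - strand: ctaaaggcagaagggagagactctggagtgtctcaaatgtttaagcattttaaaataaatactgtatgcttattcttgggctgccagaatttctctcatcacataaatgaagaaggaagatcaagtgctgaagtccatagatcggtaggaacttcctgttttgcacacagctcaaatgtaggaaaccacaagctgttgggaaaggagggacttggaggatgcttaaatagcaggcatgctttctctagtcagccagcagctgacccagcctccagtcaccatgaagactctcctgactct
The Ctss window held 2 copies, beginning at bases 87 (forward) and 251 (reverse) counted from its 5′ end, and the Lyz2 window none. Of the 7 myeloid genes with such a window (Lyz2, Ctss, Fcer1g, Cd68, C1qb, Aif1 and Laptm5), 5 held GAGGAA, as did 28.3% of all 32851 windows of this length. A match is a description of the letters, not a binding site.

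Cd68, a heavily glycosylated protein of the lysosomal membrane in macrophages, did not follow Lyz2 and Ctss. Its signals were 1483, 1168 and 499 on intact basal arrays and 395, 1078 and 361 on castrated basal arrays, so the groups overlapped, and the difference was -0.81 ± 0.72 (adjusted p = 0.607). On luminal arrays it was 205, 216 and 737 in intact and 206, 15.5 and 84.8 in castrated mice (-1.93 ± 0.72, adjusted p = 0.137). Its mean was 1050.2 ± 502 (SD, n = 3) on intact basal arrays, higher than in any other group.

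Tyrobp and Fcer1g encode DAP12 and the Fc receptor gamma chain, short membrane adaptors through which activating receptors of myeloid cells signal. Tyrobp had signals of 144, 69.8 and 5.16 on intact basal arrays and 659.6, 617 and 169.9 on castrated basal arrays. The groups did not overlap, but the spread within each was wide, and the difference of 2.70 ± 0.82 did not pass (adjusted p = 0.0873). It passed with quantile normalization (0.0483), median centring (0.0374) and 64 added before the logarithm (0.0459). Fcer1g was 16.2, 18.8 and 94.7 on intact and 7.65, 162 and 346 on castrated basal arrays, with overlap (1.21 ± 0.96, adjusted p = 0.553). The castrated basal array on which Fcer1g was lowest, replicate 1, was the one on which Tyrobp was highest.

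Csf1r encodes the receptor for the macrophage growth factors Csf1 and Il34. By the probe set used, it had 46.4, 154 and 74.3 on intact and 186, 49.3 and 90.2 on castrated basal arrays, and 0.18 ± 0.66 as the difference (adjusted p = 0.924). The other 2 probe sets gave a wider picture. One of them, 1419872_at, read 1070.2, 56.1 and 1.67 on intact and 588, 346 and 46.6 on castrated basal arrays, and 1.77, 14.2 and 2.39 on castrated luminal arrays. Its castrated basal and castrated luminal arrays did not overlap, whereas those of the probe set used did.

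C1qa and C1qb encode chains of C1q, the recognition part of the classical complement pathway, and resident macrophages are its main source. C1qa had signals of 5.99, 6.96 and 20.3 on intact basal arrays and 10.2, 267 and 7.11 on castrated basal arrays. A single array, castrated basal replicate 2, carried it, and since it passed the 40th percentile on 1 of 12 arrays it was not tested. C1qc, encoding the remaining chain, was likewise seen on a single array, castrated basal replicate 1, at 429 against 0.891 to 11.3 on the other 11. C1qb, by the probe set used, had 92.4, 9.8 and 79.4 on intact and 167, 241 and 49.2 on castrated basal arrays (1.18 ± 0.74, adjusted p = 0.438). Its 2 other probe sets did part intact from castrated basal arrays, for example 1437726_x_at with 37.4, 2.3 and 9.29 against 109, 132 and 91.3. That probe set was brightest on a castrated luminal array, replicate 1, at 163.

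Aif1 encodes Iba1, an actin-bundling protein of macrophages and microglia. On luminal arrays it was 2.22, 3.67 and 8.0 in intact and 26.6, 52.7 and 199 in castrated mice, without overlap, and on basal arrays 5.01, 64.7 and 27.4 against 49.7, 155 and 278, with overlap. Neither difference passed (2.06 ± 0.73, adjusted p = 0.113, and 1.83 ± 0.73, adjusted p = 0.198). All 3 intact luminal values lay under the 40th percentile of their arrays. Laptm5, a lysosomal membrane protein of leukocytes, was 37.7, 13.2 and 65.8 on intact and 62.2, 44.3 and 101 on castrated basal arrays (0.70 ± 0.59, adjusted p = 0.584). Of its 5 probe sets, 1436905_x_at read 742, 593 and 5.53 on castrated basal arrays against 21.6, 2.0 and 1.48 on intact ones, the third castrated array being as dim as the intact ones.

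**Figure D2:**
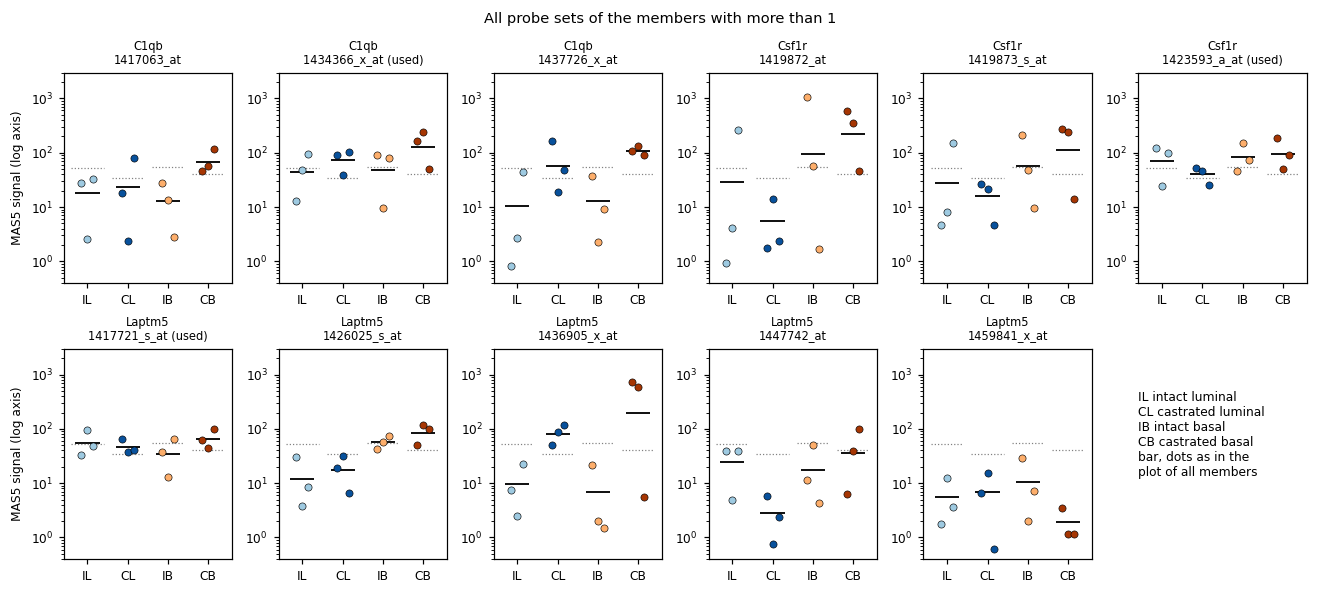
MAS5 signal (log axis) of every probe set of C1qb, Csf1r and Laptm5 on the 12 arrays, in the 4 groups, with bars and dotted lines as in the plot of all members. Probe sets of a gene differ, and the probe set used for Csf1r and for Laptm5 shows a smaller spread between groups than 1419872_at and 1436905_x_at.

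In basal cells, then, of the 9 myeloid genes tested 2 rose after castration, 0 fell and 7 did not pass, where over all 14645 genes 1.12% rose and 1.5% fell, 2.62% together. The median difference of the 9 was 1.21, that of all genes -0.11. The groups did not overlap upward for 3 of the 10, where 8.71% of all genes behaved so, and downward for 0, where 11.1% did. In luminal cells 0 of the 9 passed by limma in either direction (2.9% of all genes were higher and 2.96% lower, 5.86% together), 3 had an unadjusted p under 0.05 (Ctss, Aif1 and, lower, Cd68), and the median was 0.11 against -0.09. Ctss and Aif1 were the 2 of 10 that did not overlap upward in luminal cells, where 14.9% of all genes did so and 16.8% parted downward, among them 0 of the 10. Lyz2 (66.8, 57.4 and 146 on castrated against 102, 82.1 and 51.3 on intact luminal arrays) and Tyrobp (52.3, 27.0 and 55.5 against 18.7, 103 and 4.07) overlapped. A gene entered the test by exceeding the 40th percentile on 3 arrays, and so could enter through the group in which it was bright.

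**Figure D3:**
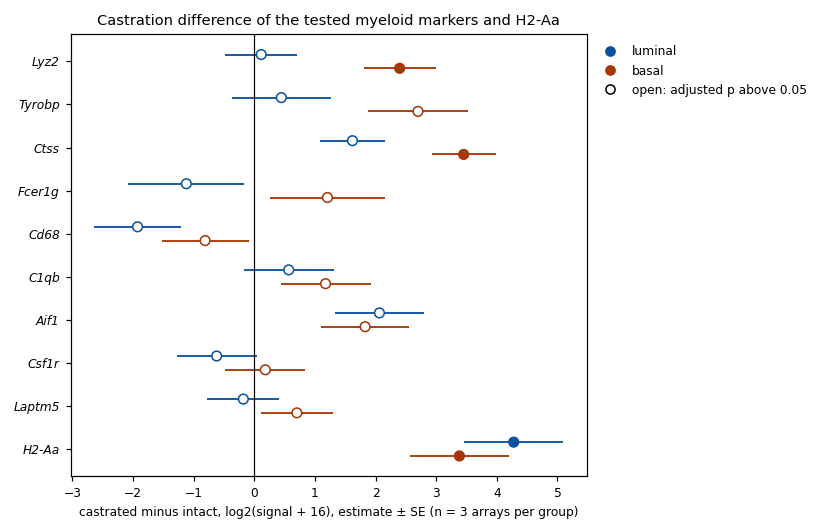
Castrated minus intact difference in log2(signal + 16), as estimate ± standard error from limma (3 arrays per group), for the 9 tested myeloid genes and H2-Aa in luminal and basal cells, filled where the adjusted p is at most 0.05. In basal cells Lyz2, Ctss and H2-Aa are filled, and in luminal cells H2-Aa alone.

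Luminal and basal cells of castrated mice were then compared directly. Of the 9 genes tested 4 were lower in luminal cells, 0 were higher and 5 did not pass, where over all genes 7.22% were lower and 11.2% higher, 18.4% together. They were Lyz2 (-2.53 ± 0.59, adjusted p = 0.00603), Tyrobp (-2.85 ± 0.82, adjusted p = 0.0214), Cd68 (-2.64 ± 0.72, adjusted p = 0.0157) and Ctss (-1.82 ± 0.53, adjusted p = 0.0228). For these 4 of the 10 the groups did not overlap, which held for 17.5% of all genes in that direction and for 23.6% in the other, the latter including 0 of the 10. Lyz2 passed under all 25 alternatives. Without castrated luminal replicate 2, or without castrated basal replicate 2, 1 of the 4 calls was left, and 2 without castrated luminal replicate 1 or 3. In intact mice 0 of the 9 differed by limma between luminal and basal cells (11% of all genes were higher in luminal and 8.45% lower, 19.5% together) and 1 had an unadjusted p under 0.05, Cd68 at -1.52 ± 0.72. The groups overlapped for all 10, while 18% of all genes were higher and 14% lower without overlap. Without all arrays of replicate 3 Cd68 passed there.

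Whether castration acted differently in the 2 cell types was tested by the interaction. Of the 9 genes 0 passed by limma, against 1.15% of all genes. Of all genes, 0.676% passed with a luminal minus basal effect above 0 and 0.471% with one below 0. That sign does not say in which cell type the change was larger. Of the 9, 2 had an unadjusted p under 0.05: Lyz2, whose luminal minus basal effect was -2.28 ± 0.84 (adjusted p = 0.246), and Ctss (-1.83 ± 0.75, adjusted p = 0.308). An effect that differs between the cell types was therefore not shown for these genes.

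The myeloid genes were set beside H2-Aa, which encodes the alpha chain of the class II molecule I-A and is abundant in antigen-presenting leukocytes. The question is whether both follow 1 source, RNA carried over from leukocytes. On luminal arrays H2-Aa had signals of 209, 18.1 and 3.95 in intact and 1178, 1593 and 567 in castrated mice. On basal arrays it had 113, 69.9 and 20.3 in intact and 358, 1383 and 859 in castrated mice. It rose in both cell types, by 4.28 ± 0.81 in luminal (adjusted p = 0.00384) and 3.38 ± 0.81 in basal cells (adjusted p = 0.0358), and castrated luminal and castrated basal arrays overlapped (0.43 ± 0.81, adjusted p = 0.769). The luminal call held under all 25 alternatives and the basal call under 13. In basal cells that rise stood beside those of Lyz2 and Ctss. In luminal cells it stood beside Ctss and Aif1, which were also higher on every castrated than on every intact array without passing the test, and beside 8 of the 10 genes, Lyz2 and Tyrobp among them, whose groups overlapped. The part of carried leukocyte RNA in the class II signal was not tested beyond these values.

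Of the 4 probe sets of H2-Aa, 3 were higher on every castrated than on every intact luminal array and 2 of these also on basal arrays, where 1438858_x_at overlapped (118 on castrated replicate 1 against 120.4 on intact replicate 1), and the fourth, 1443783_x_at, was under the 40th percentile on all 12 arrays. The promoter window of H2-Aa is shown for comparison with those of Ctss and Lyz2, with ATTGG in capitals, the reversed CCAAT letters of the class II Y box that the factor NF-Y binds.
H2-Aa, chr17:34287774-34288073, - strand: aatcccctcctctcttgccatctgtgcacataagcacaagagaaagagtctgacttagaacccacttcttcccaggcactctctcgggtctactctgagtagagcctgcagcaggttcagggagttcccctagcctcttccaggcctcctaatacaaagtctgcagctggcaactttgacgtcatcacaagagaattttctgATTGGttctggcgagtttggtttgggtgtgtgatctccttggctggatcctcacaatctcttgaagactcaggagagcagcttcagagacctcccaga
ATTGG occurred once on either strand, in forward direction from base 203 of the window. It was in 37.4% of all windows, in 2 of the 7 windows of myeloid genes (Cd68 and Laptm5) and in neither the Ctss nor the Lyz2 window. No GAGGAA and ATTGG match overlapped.

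Since H2-Aa parted castrated from intact arrays without overlap in each cell type, a correlation over the 6 arrays of a cell type would only restate that split, and none is given. With the 4 group means removed, what is left is whether arrays of 1 group that had more H2-Aa also had more of a myeloid gene. Over the 12 arrays, r was positive for 4 of the 9 tested genes and negative for 5. It was 0.36 for Lyz2 (Spearman's rho 0.34), 0.17 for Tyrobp (rho 0.21), 0.13 for Ctss (rho 0.06) and 0.02 for Csf1r (rho -0.16). For C1qb it was -0.47 (rho -0.29), for Laptm5 -0.43 (rho -0.50) and for Fcer1g -0.39 (rho -0.34). By exact permutation of arrays within groups (1296 arrangements, two-sided), 0 of the 9 had an unadjusted p under 0.05, and the lowest adjusted p over the 9 was 0.729 for r and 0.887 for rho. Without the 2 arrays farthest from the median in H2-Aa, intact luminal replicates 1 and 3, r was 0.18 for Lyz2, 0.16 for Tyrobp and 0.55 for Ctss, and -0.17 for C1qb, -0.41 for Laptm5 and -0.06 for Fcer1g. Luminal and basal arrays of 1 treatment and number may share mice, which the permutation does not allow for.

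**Figure D4:**
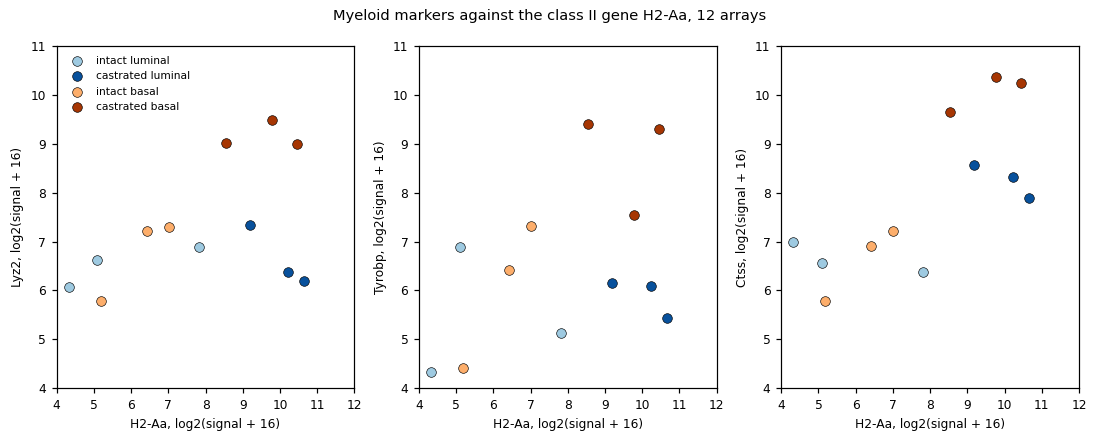
Lyz2, Tyrobp and Ctss (vertical) against H2-Aa (horizontal), all as log2(signal + 16), with 1 point per array for the 12 arrays in 4 colours by group. Castrated luminal and castrated basal arrays share the range of H2-Aa, and the castrated basal arrays lie above the castrated luminal ones for all 3 genes.

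Most other class II genes did not pass the test. Of the 9 tested, H2-Aa included, 2 rose in luminal and 2 in basal cells (2.9% and 1.12% of all genes did), H2-Aa and H2-Eb1 in each (H2-Eb1 by 2.92 ± 0.73, adjusted p = 0.0241, and by 2.95 ± 0.73, adjusted p = 0.0405), 0 fell and 7 did not pass in each. The H2-Eb1 calls held under 20 and 10 of the 25 alternatives. Cd74, the class II chaperone that Ctss cuts, had 534, 294 and 186 on intact and 2627, 4191 and 1203 on castrated luminal arrays, and 397, 17.8 and 743 on intact and 894, 2086 and 3014 on castrated basal arrays, without overlap in either cell type. It did not pass (adjusted p = 0.0564 and 0.0667). Ciita, the master activator of class II genes, lay between 11.4 and 100.4 on all arrays and did not pass either (adjusted p = 0.928 in luminal and 0.896 in basal cells).

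Further macrophage and monocyte genes gave a mixed picture. Of the 28 measured, 20 were tested. In basal cells 0 rose and 0 fell after castration (1.12% and 1.5% of all genes did), with a median of 0.33. In luminal cells 1 rose and 0 fell (2.9% and 2.96% of all genes did), with a median of -0.64. Their summed signal was 2446 to 2632 on intact and 2447 to 3029 on castrated basal arrays, and 2491 to 3625 on intact and 2500.5 to 2769.9 on castrated luminal ones, ranges that overlapped. The 1 that rose in luminal cells was Cd14, a co-receptor for bacterial lipopolysaccharide, at 119, 170.0 and 90.5 in intact and 532, 621 and 419 in castrated mice (1.94 ± 0.53, adjusted p = 0.0396). The call held under 15 of the 25 alternatives, and its adjusted p was 0.0572 with the replicate number as a block. Mpeg1, a pore-forming protein of macrophages, had 11.5, 9.43 and 7.1 on intact and 441, 370.2 and 17.2 on castrated basal arrays (2.83, adjusted p = 0.0674), and Ly86, which pairs with a Toll-like receptor relative, 5.61, 2.99 and 7.83 against 54.3, 67.9 and 48.2 (1.76, adjusted p = 0.0792). Neither passed. Adgre1, which encodes the macrophage antigen F4/80, was 3.86 to 49.5 over all arrays and was not tested, and Ccr2 and Fcgr4 were under the 40th percentile on every array.

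Among receptors, ligands and signalling proteins that work with Csf1r, Tyrobp and Fcer1g, 15 of 22 measured genes were tested. Of these, 2 rose in luminal and 0 in basal cells, where 2.9% and 1.12% of all genes rose. Csf1 itself, the ligand of Csf1r and a product of many tissues, rose in luminal cells from 535, 279.6 and 817 to 2719, 3753 and 2279.7 (2.48 ± 0.62, adjusted p = 0.0231). The adaptor Blnk rose there too (1.04 ± 0.25, adjusted p = 0.0171), and both calls held under 19 of the 25 alternatives. In basal cells Csf1 was 432, 1059 and 467 in intact and 337, 1318 and 3051 in castrated mice (0.88, adjusted p = 0.494). Of 16 lysosomal genes tested other than the myeloid ones, 1 rose in luminal cells, the protease Ctsh (2.29 ± 0.39, adjusted p = 0.00186). There 2 fell, Laptm4a (-0.74 ± 0.20, adjusted p = 0.0384) and the protease inhibitor Cst3 (-0.68 ± 0.20, adjusted p = 0.0487). In basal cells 0 rose and 0 fell. Over all genes 2.9% rose and 2.96% fell in luminal cells, and 1.12% rose and 1.5% fell in basal cells. The Ctsh call held under all 25 alternatives, that of Laptm4a under 17 and that of Cst3 under 7, with an adjusted p of 0.0648 under the replicate block.

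Of the markers of other leukocytes tested, none passed as higher in basal cells, where 1.12% of all genes did, a share at which lists of this size would hold few or no calls: 0 of 16 pan-leukocyte, 3 dendritic cell, 7 T and NK cell, 5 B and plasma cell, 7 neutrophil and 6 mast cell genes tested rose, and 1 pan-leukocyte gene fell. Over all genes 1.5% fell in basal cells. The list medians lay between -0.42 and 0.05. Ptprc, which encodes the leukocyte antigen CD45, had 21.7, 37.7 and 52.3 on intact and 0.594, 2.54 and 89.1 on castrated basal arrays, and 32.9 to 57.1 on intact and 9.22 to 19.6 on castrated luminal arrays. Within the castrated basal group it was lowest of all arrays on replicates 1 and 2, under their 40th percentiles of 44.9 and 38.9. It was highest of all arrays on replicate 3. That array was the brightest of all for 5 myeloid genes, Lyz2, Ctss, Fcer1g, Aif1 and Laptm5. Of the castrated basal arrays it was the dimmest for Tyrobp, Cd68, C1qa and C1qb. The pan-leukocyte gene that fell in basal cells was the actin-bundling protein gene Lcp1 (-1.80 ± 0.40, adjusted p = 0.0260), a call that held under 20 of the 25 alternatives. Lcp1 was far brighter on luminal arrays, with means of 2129 in intact and 2637 in castrated mice, against 445 and 116 on basal arrays. In luminal cells the lymphocyte surface glycoprotein Cd52, which male reproductive epithelium makes too, fell from 9749, 9602 and 11519 to 447, 484 and 28.5 (-5.56 ± 0.77, adjusted p = 2.87e-04), and Cytip rose (2.79 ± 0.76, adjusted p = 0.0385). The alternatives kept the Cd52 call 25 times and the Cytip call 16 times. The summed signal of the 19 measured pan-leukocyte genes went with them, at 13184 to 14992 on intact and 4238 to 5276 on castrated luminal arrays, and at 2247 to 4027 on intact and 1726 to 2184 on castrated basal ones. Cd52 made up most of the intact luminal sum.

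**Figure D5:**
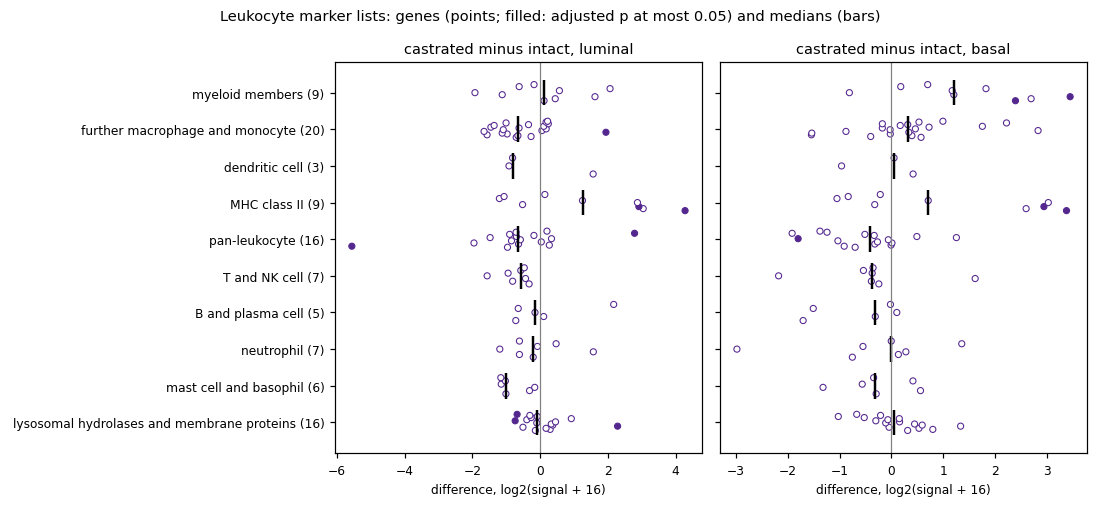
Castrated minus intact difference in log2(signal + 16) in luminal (left) and basal cells (right) for the tested genes of 10 lists, 1 point per gene, filled where the limma adjusted p is at most 0.05, with the list median as a bar and the number of genes in brackets. In basal cells the median of the myeloid genes is 1.21, and those of the other leukocyte lists apart from MHC class II (0.71) lie between -0.42 and 0.33.

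Among all genes tested, those whose pattern over the 12 arrays was most like the mean of the 9 myeloid genes were Calml3 (r = 0.92), Stat3 (0.92), Yy1 (0.91), Sde2 (0.90), Rab10 (0.90), Rab21 (0.90), Hipk3 (0.89) and Gprasp2 (0.89). None of these 8 stood in a leukocyte list, but those lists hold a small part of all genes tested, so that was likely in advance. Stat3, a transcription factor activated by cytokines, had group mean signals of 4647 in intact and 4692 in castrated luminal arrays. On basal arrays its means were 7266 in intact and 14310.2 in castrated mice. Of the myeloid genes themselves Lyz2 (r = 0.91), Ctss (0.85) and Tyrobp (0.81) were closest to their mean and Csf1r (0.16) farthest, each being part of it. These correlations share arrays and scaling and are given as a description.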

How the data were processed

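Sorted cells gave RNA through RNeasy Micro columns, and NuGEN Pico amplification and biotin labelling followed, per the labels' protocols. MAS5 made the deposited signal, an intensity, per the submitters' processing notes. By its values it is linear and was scaled to 1 trimmed mean. Of 45101 probe sets, 64 controls were dropped. By GEO's platform annotation 34945 had a single symbol, 932 had several and 9160 are unnamed here. The scale was log2 after adding 16. A probe set needed a signal over the 40th percentile on 3 arrays or more, and the brightest represented its gene, leaving 14645 genes. The 4 group means were fitted with limma 3.58.1 (R 4.3.3; intensity trend, 8 residual degrees of freedom, Benjamini-Hochberg at 0.05). The model was tested on simulated data. Python 3.11.15 and matplotlib 3.10.9 made the tables and plots.

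The genes and lists were chosen with earlier results of these data known, so counts over them are descriptions. Named were the 10 genes and H2-Aa in every comparison, and up to 4 genes with the lowest adjusted p per list and castration comparison. Also named were the 8 genes most like the myeloid mean and 6 genes fixed for the check of the sort. Of those 6, Krt5, Krt8, Krt18 and Epcam are printed. Ciita, Ptprc, C1qc, Adgre1, Ccr2 and Fcgr4 were named outside that rule, as was Csf1 in basal cells. Correlations over the 6 arrays of a cell type had been planned and were replaced, after seeing the data, by those with group means removed. The design text speaks of castrated and paired intact animals. Deviations of same-numbered arrays from their group means correlated between -0.00723 and 0.0258. With so few arrays in a group, these values cannot decide whether equal numbers mark paired animals. The main fit left pairing out, and the number was used as a block in an alternative. Other alternatives were quantile normalization, median centring, other constants (1 and 64), no or a stricter filter (60th percentile), the mean of probe sets, 2-group fits, no trend, array weights, a random block (consensus correlation 0.0125) and left-out arrays.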

Additional observations from a re-analysis of the deposited data

Results flagged for a closer look

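The castration effect differed between luminal and basal cells, by the interaction test, for 2 of the 16 pan-leukocyte genes tested, where 1.15% of all genes passed. For Cd52 the luminal minus basal effect was -4.65 on the log2 scale (limma adjusted p = 0.0473, and 0.0714 with the replicate number as a block). Cd52 was on 3 of 3 castrated luminal arrays below every intact luminal one, as were 16.8% of all genes. On basal arrays Cd52 was 226, 120 and 190 in intact and 73.1, 30.7 and 229 in castrated mice, with overlap. For Cytip the effect was 4.70 (adjusted p = 0.0439). Its 3 of 3 castrated luminal arrays lay above every intact luminal one, as for 14.9% of all genes. On basal arrays Cytip was 60.3, 84.6 and 649 in intact and 62.1, 8.44 and 33.8 in castrated mice. The basal groups overlapped, and the intact value of 649, on replicate 3, stood far above the others. The Cd52 call held under 7 and the Cytip call under 9 of 24 alternatives.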

How the results depend on the processing

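The Ctss rise in basal and the H2-Aa rise in luminal cells passed under 25 of 25 alternatives, the Lyz2 rise in basal cells under 10 of 25 (adjusted p from 0.0162 to 0.132) and the H2-Aa rise there under 13 of 25 (0.0166 to 0.111). With castrated luminal against castrated basal, Lyz2 passed under 25, Cd68 under 23, Ctss under 20 and Tyrobp under 19. In basal cells, 3 myeloid genes passed with quantile normalization, median centring or 64 added, and 1 with 1 added, no filter, a 2-group fit, array weights or the replicate number as a block. In luminal cells, 1 passed with median centring, the mean of probe sets or array weights. Leaving out arrays, 1 to 2 passed in basal cells, 0 to 1 between intact luminal and basal cells, and 1 to 4 between castrated ones.

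Counts over all genes moved more. The luminal count (858) was 555 without the intensity trend and 1945 with array weights, and the basal count (384) was 626 with median centring, 120 in a 2-group fit, 155 without the trend and 202 with array weights. The interaction count (168) was 27 without the trend. Leaving out arrays gave 401 to 984 luminal and 175 to 623 basal calls, 1720.0 to 3109 between castrated luminal and basal cells, and 65 to 163 interactions.

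Directions turned only among differences that did not pass. In luminal cells, Lyz2 was -0.086 with array weights and Laptm5 0.23 after quantile normalization, 0.20 after median centring, 0.98 for 64 added and 0.67 for averaged probe sets. Between intact luminal and basal cells, Ctss was -0.018 with 64 added and -0.23 with array weights, and the mean of probe sets gave Laptm5 -0.24 and H2-Aa 0.51. The Aif1 interaction was -0.094 with 64 added. Leaving out arrays, the luminal effect ran from -0.46 to 0.33 for Lyz2, -0.25 to 1.17 for Tyrobp and -0.44 to 0.14 for Laptm5, and the basal effect of Csf1r from -0.24 to 0.58. Luminal minus basal in intact mice ran from -0.73 to 0.024 for Lyz2, -1.42 to 0.035 for Tyrobp, -0.59 to 0.30 for Ctss, -0.77 to 0.40 for C1qb, -0.53 to 0.35 for Csf1r and -1.50 to 0.25 for H2-Aa, and in castrated mice from -0.092 to 0.94 for H2-Aa. The interaction ran from -1.23 to 0.052 for C1qb and -0.43 to 0.74 for Aif1. The correlation with H2-Aa turned for Cd68 (0.045 with 64 added, 0.036 with the mean of probe sets, 0.36 without 2 arrays), Csf1r (-0.053 with 64 added, -0.15 without 2 arrays) and Laptm5 (0.030 with the mean of probe sets). The causes were not tested.

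As a block, the replicate number ended 4 calls among the named genes: Lyz2 in basal cells (0.0589), Cd14 (0.0572) and Cst3 (0.0648) in luminal cells, and the Cd52 interaction (0.0714). It changed no other call named here. Deviations of same-numbered arrays correlated at most at 0.0258, which does not decide whether equal numbers mark paired animals. Those 4 calls therefore depend on whether the number is taken into account. Median centring moved the median of all genes from -0.09 to 0.29 in luminal and from -0.11 to 0.23 in basal cells. Signals near or under the 40th percentile, as for Aif1 and on most arrays for C1qa, limit what small differences can show.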
